A study of Bos grunniens and Bos grunniens x Bos taurus with 6 samples.

Results

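Cells of the testis of 1 cattle-yak were compared with those of 1 mature yak. The cattle-yak is the hybrid of yak and domestic cattle, given in the labels as Bos grunniens x Bos taurus and as sampled after sexual maturity, with no age. The yak (Bos grunniens) was 4 years old and was also sampled after sexual maturity. The members are the barcodes of these 2 libraries with at least 300 genes and at most 20% of their UMIs (unique molecular identifiers, each standing for 1 captured RNA molecule) on mitochondrial features. They are 3815 barcodes of the cattle-yak and 4800 of the yak, 8615 of the 40564 barcodes in the 6 libraries of the series. The other libraries came from yaks of 6 months (2 libraries) and of 18 months (2 libraries), and serve below only as a range of yak values. No treatment or genetic change is given for any animal. Frozen tissue was thawed, digested with enzymes and held in culture medium before loading, so all levels are those of cells that survived these steps.

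Spermatogenesis runs from spermatogonia, which divide and renew themselves, through spermatocytes, which pair and recombine their chromosomes in meiosis, to haploid spermatids, which build the acrosome and the tail and repack their chromatin. Sertoli cells nurse these stages inside the seminiferous tubule, and peritubular cells, Leydig cells, vessels and immune cells lie around it. Cattle-yak males are known to be sterile while females are fertile, and the hybrid is used to study where germ cell development stops.

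Each side is 1 library from 1 animal, so no test was possible, and animal, species cross, age and library cannot be told apart. Intervals in parentheses are exact 95% intervals that cover counting error only. The spread between animals is read from the 2 libraries of 18 months, compared in the same way. The cattle-yak library held 5104 barcodes and 9575446 UMIs, the yak library 6184 barcodes and 15897418 UMIs, and they shared 13 barcodes. After removal of likely doublets 3642 and 4562 cells remained. The median cell had 1467 UMIs from 547 genes in the cattle-yak and 1480 UMIs from 684 genes in the yak. The labels tag the material as germ cells, but markers placed most cells of both libraries in somatic classes.

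Few cells of the cattle-yak library were germ cells, and larger shares were lymphocytes, stroma, mural and Sertoli cells than in the mature yak. Cells were grouped by clustering and named from marker lists. Germ cells made up 127 of 3642 cells (3.49%, 2.92 to 4.14) in the cattle-yak and 1753 of 4562 cells (38.4%, 37.0 to 39.9) in the yak of 4 years. Lymphocytes, which carried T cell and killer cell genes, were the largest class of the hybrid with 1318 of 3642 cells (36.2%, 34.6 to 37.8), against 814 of 4562 cells (17.8%, 16.7 to 18.99) in the yak. The cattle-yak value lay above those of all 5 yak libraries. Stroma, the fibroblast-type cells marked by DCN, PDGFRA and collagens, reached 669 of 3642 cells (18.4%, 17.1 to 19.7) against 203 of 4562 cells (4.45%, 3.87 to 5.09). Mural cells, the contractile cells of vessel and tubule walls marked by ACTA2, MYH11 and RGS5, reached 383 of 3642 cells (10.5%, 9.54 to 11.6) against 134 of 4562 cells (2.94%, 2.47 to 3.47). Sertoli cells, marked by INHA, SOX9 and CITED1, reached 344 of 3642 cells (9.45%, 8.51 to 10.4) against 71 of 4562 cells (1.56%, 1.22 to 1.96). The mural share of the hybrid was above all 5 yak libraries, its Sertoli share lay within the range of the younger yaks, and its stromal share was above the mature yak and below all 4 younger ones.

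Endothelial cells went the other way, with 566 of 3642 cells (15.5%, 14.4 to 16.8) in the cattle-yak and 1523 of 4562 cells (33.4%, 32.0 to 34.8) in the yak. Macrophages were few on both sides, 86 of 3642 cells (2.36%, 1.89 to 2.91) against 52 of 4562 cells (1.14%, 0.852 to 1.49). No cell of either library fell in a cluster named as Leydig cells, the steroid-making cells (0 of 3642 cells, where a count of 0 allows up to 0.0824%, and 0 of 4562 cells, where a count of 0 allows up to 0.0658%). The 0 is a count by cluster and not of cells with steroid genes. CYP11A1, a Leydig marker, had 62 counts in the yak's stromal cluster 41. Whether Leydig cells lay within the stroma was not tested. Shares add up to the whole, so a lower germ cell share goes with higher shares of other cells. Among cells that were not germ cells, lymphocytes were 37.5% against 29.0%, stroma 19.03% against 7.23%, and endothelial cells 16.1% against 54.2%, so for these 3 classes the order of the libraries was the same. Loss of cells during digestion was not measured.

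**Figure D1:**
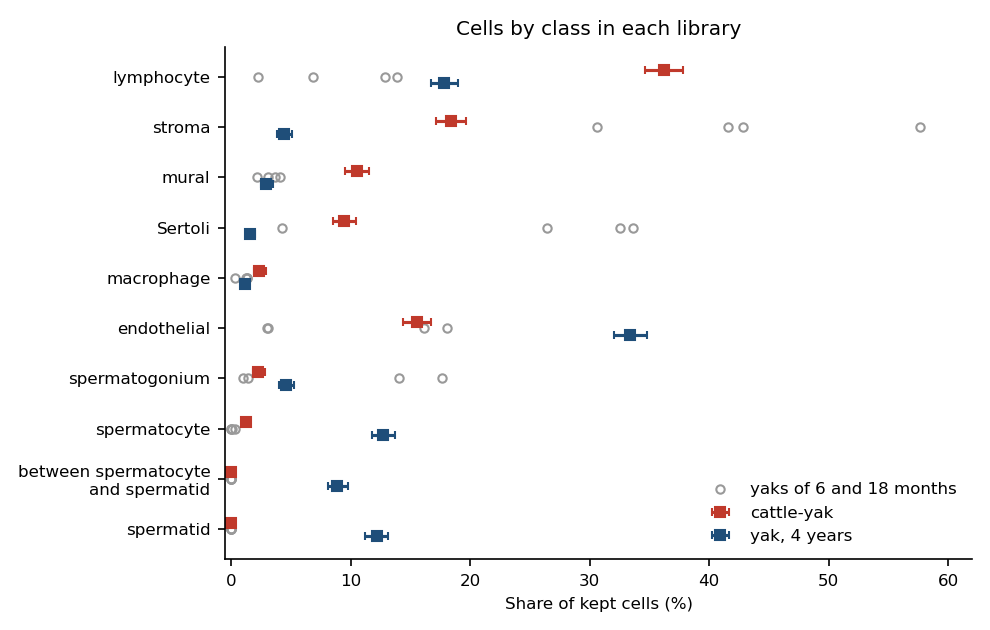
Share of kept cells (x axis, %) in each class (y axis) for the cattle-yak (red) and the yak of 4 years (blue), with bars for the exact 95% counting interval, and open circles for the 4 libraries of younger yaks. The hybrid stands right of the mature yak for lymphocytes, stroma, mural and Sertoli cells and left of it for endothelial cells and every germ stage, and it has 0 cells in both spermatid groups.

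Germ cells of the cattle-yak were spermatogonia and mostly early spermatocytes, and the clusters with spermatid markers held none of them. Spermatogonia were 83 of 127 cells (65.4%, 56.4 to 73.6) of the germ cells in the hybrid and 211 of 1753 cells (12.0%, 10.5 to 13.7) in the yak. Spermatocytes were 44 of 127 cells (34.6%, 26.4 to 43.6) and 581 of 1753 cells (33.1%, 30.9 to 35.4). Cluster 36, the spermatids, held 555 of 1753 cells (31.7%, 29.5 to 33.9) in the yak, and in the hybrid 0 of 127 cells, where a count of 0 allows up to 2.36%. Cluster 35, which carried markers of spermatocytes and spermatids together, held 406 of 1753 cells (23.2%, 21.2 to 25.2) of the yak and 0 of the hybrid. These 2 groups made up 32.4% to 69.4% of the yak's germ cells over the 7 alternatives of filtering and clustering, and the hybrid held 0 such cells under 6 of them and 1 under the limit of 10% mitochondrial UMIs. Over the same alternatives spermatocytes made up 34.6% to 50.6% of the hybrid's germ cells and 15.3% to 53.7% of the yak's, so the order of these shares depended on the setting. The hybrid's count of spermatogonia also depended on clustering, with 37 of 125 germ cells (29.6%) at the finest resolution. Cluster 18, which held 81 of the 83, raised 6 spermatogonial and 8 spermatocyte markers. Its lead for the spermatogonial name, in mean log2 fold of the markers, was 0.32. The leads were 1.75 and 0.26 in clusters 39 and 25, which held most of the yak's spermatogonia.

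Within meiosis the hybrid cells sat at the early end. Cluster 19, with high SYCP3, SYCP1 and MEIOB, held 40 of 44 cells (90.9%, 78.3 to 97.5) of the cattle-yak's spermatocytes and 193 of 581 cells (33.2%, 29.4 to 37.2) of the yak's. Cluster 38, the later spermatocytes, held the rest, 4 cells against 388. In the yak, SYCP3, a lateral element protein of the synaptonemal complex, stood at 789 CPM (counts scaled to the same total in each cluster, class or library) in cluster 19 and 18.7 in cluster 38. PIWIL1, the piRNA-binding Argonaute of pachytene cells, was 16.6 CPM in cluster 19 and 429 in cluster 38. CCNA1, the cyclin of the meiotic divisions, was at 96.0 CPM in cluster 38 and 561 in cluster 35, and ACRV1, a protein of the acrosome, at 194 CPM in cluster 35 and 1506 in cluster 36. In the hybrid's cluster 19, SYCP3 stood at 1395 CPM, PIWIL1 at 6.38 CPM and CCNA1 at 6.38 CPM, and ACRV1 had no count. Other acrosome genes were counted there: SPACA1 stood at 57.4 against 20.7 CPM in the yak's cluster 19 and ZPBP at 243 against 189 CPM, where the yak's spermatids in cluster 36 held 1067 and 1003 CPM. Of the 7 acrosome and round spermatid genes measured in cluster 19, 1 was past 2-fold higher in the hybrid and 4 lower, the latter all marked as possible free RNA (a level under 20% of that in the highest class of the same library).

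**Figure D2:**
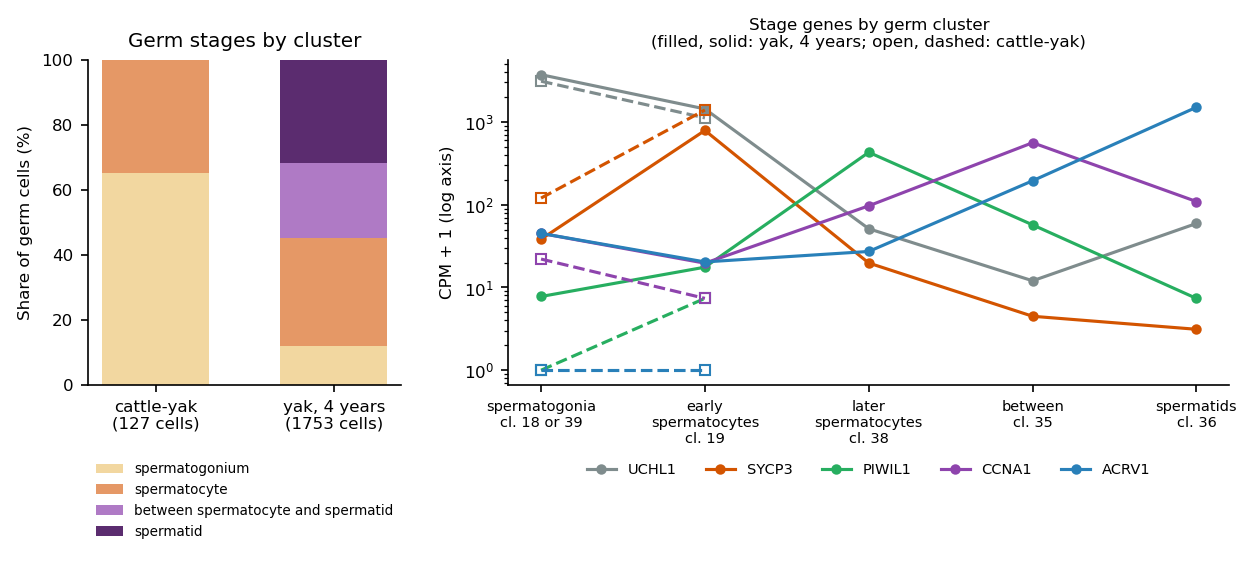
Left, share of germ cells (y axis, %) by stage in each library, with the number of germ cells under the bars, and right, level of 5 stage genes (y axis, CPM + 1 on a log axis) in each germ cluster (cl.), filled points for the yak of 4 years and open points for the cattle-yak, which is drawn only for clusters with at least 20 of its cells, and for spermatogonia in its own largest cluster, 18, against 39 in the yak. Hybrid cells reach the SYCP3 peak of early spermatocytes, and the PIWIL1, CCNA1 and ACRV1 peaks belong to clusters that hold 4, 0 and 0 of them.

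The stages were also read without clusters. Every barcode of the rule was thinned to 500 UMIs, and a barcode counted for a stage when at least 2 different markers of that stage were left. Barcodes with 2 spermatid markers numbered 1 of 3815 in the cattle-yak (0.0262%, 0.000664 to 0.146) and 1140 of 4800 in the yak (23.8%, 22.6 to 25.0). Spermatocyte markers were found in 38 barcodes of the hybrid (0.996%, 0.706 to 1.36) and in 406 of the yak (8.46%, 7.69 to 9.28). Spermatogonial markers were found in 18 (0.472%, 0.28 to 0.745) and 66 barcodes (1.38%, 1.07 to 1.75). The libraries thus stood further apart at each later stage. As background, 209 of the yak's 2809 somatic cells (7.44%) also held 2 spermatid markers, against 0 of 3515 in the hybrid, where a count of 0 allows up to 0.0853%. The libraries of 18 months held 3 and 2 such barcodes.

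In sums over all kept cells, genes of the late germ line were nearly absent from the cattle-yak. Of 12885 genes with at least 30 counts over both libraries, 15.6% were at least 2-fold higher in the hybrid and 34.6% at least 2-fold lower, with a median log2 ratio of -0.35. Between the 2 libraries of 18 months 46.4% of genes differed by 2-fold or more either way. In such sums fewer cells of a type and less RNA per cell cannot be told apart. HMGB4, an HMG-box protein of spermatids, had no count in the hybrid and 7167 in the yak, at least 1347-fold lower against a floor of 3 counts. ACRV1 had none against 3797, at least 713-fold lower. TMEM210, IRGC, TEX33, GSG1 and TEX43 were likewise at 0 in the hybrid, with 3118 to 5819 counts in the yak. BTBD17 had 7 against 14435 counts, 1162-fold lower (564 to 2891), and FNDC11 2 against 6514 counts, 1836-fold lower (508 to 15162).

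All measured genes for the acrosome and round spermatid, 18 of 18, and for late sperm chromatin and tail, 22 of 22, were at least 2-fold lower in the hybrid. Their median log2 ratios were -7.20 and -6.40 with genes at 0 set to the floor, and -7.90 and -9.34 with zeros ranked as lowest, where 5 and 9 genes had no count in the hybrid. CRISP2, a protein of the sperm head and tail, had 8 against 11135 counts, and TSSK1B, a kinase of late spermatids, 0 against 1892 counts. The spermatid genes TXNDC8 (0 against 2086 counts) and TEX29 (7 against 5173 counts) were alike. Genes that start earlier were lower by less. Of genes for the pachytene stage and the meiotic divisions 14 of 15 were past 2-fold lower (median log2 -3.11). PGK2, the sperm glycolytic enzyme, was 179-fold lower (61.2 to 872) and CCNA1 156-fold lower (82.1 to 342).

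The piRNA pathway, which silences transposons in germ cells, had 17 of 19 genes past 2-fold lower (median -3.14). PIWIL1 was 78.2-fold lower (35.8 to 214), GTSF1 42.5-fold lower (35.2 to 51.8) and MAEL 15.6-fold lower (13.2 to 18.5). The synaptonemal complex and meiotic cohesin list had 14 of 16 lower (median -2.07), and meiotic recombination 15 of 21 (median -1.75). DMC1, the strand exchange protein of meiosis, was 8.58-fold lower (6.34 to 11.9) and SYCP2, an axis protein, 6.39-fold lower (5.38 to 7.65). Of the yak's DMC1 counts, 414 lay in the spermatids of cluster 36 and 146 in cluster 19. Genes of differentiating spermatogonia had 5 of 8 lower (median -1.60), and stem and progenitor genes 7 of 11 lower and 1 higher (median -1.27). UCHL1, a marker of spermatogonia, was 2.60-fold lower (2.44 to 2.78), and ID4, the member past 2-fold higher, stood at 208 CPM in a mural and 128 in a Sertoli cluster of the hybrid, against 72.6 over its spermatogonia. The late lists thus stood furthest from the median of all genes, and no germ cell list other than the stem and progenitor list had a member past 2-fold higher.

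**Figure D3:**
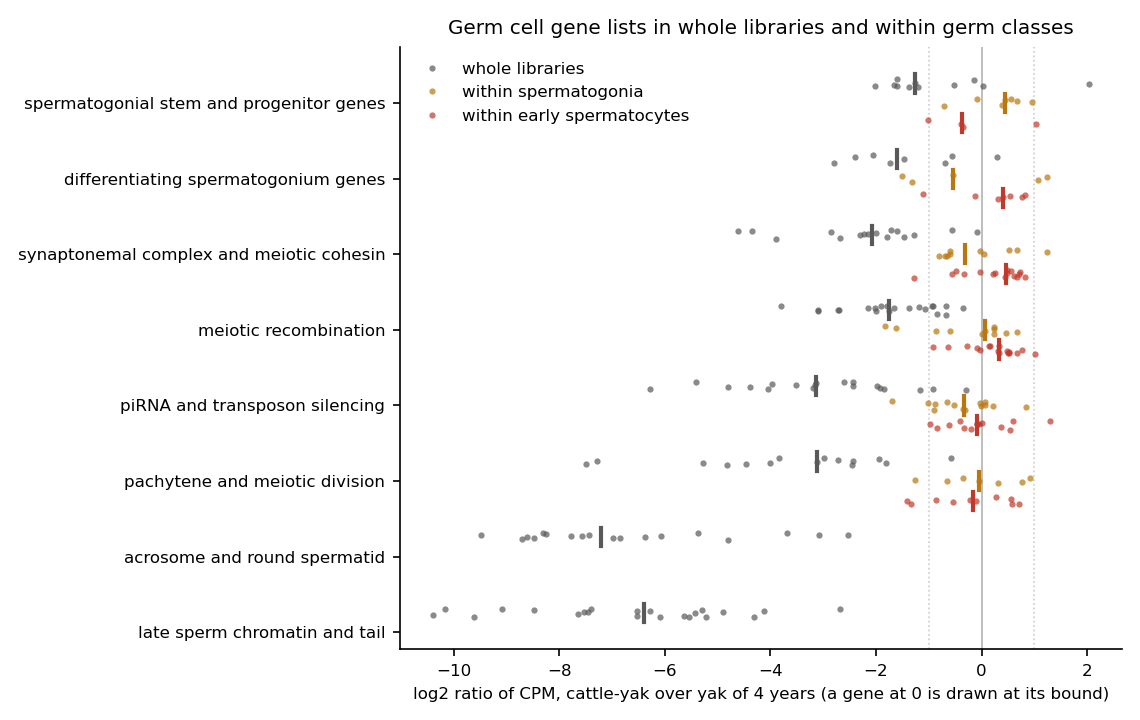
Log2 ratio of CPM, cattle-yak over yak of 4 years (x axis), of each measured gene in 8 germ cell lists (y axis), in whole libraries (grey), within spermatogonia (brown) and within early spermatocytes (red), where vertical bars are medians, dotted lines mark 2-fold, and the acrosome and sperm lists are drawn for whole libraries only. In whole libraries the acrosome and sperm lists lie furthest left, while within both germ classes most points lie between the dotted lines. Of all genes compared, 3456 of 4269 in spermatogonia and 4712 of 5637 in early spermatocytes also stood within 2-fold.

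In spermatogonia the measured stem and progenitor genes stood within 2-fold of the mature yak in summed counts, as did 3456 of all 4269 genes, and SLPI and NRIP3 stood apart. Spermatogonia came from different clusters in the 2 libraries: cluster 18 held 81 of 83 cells of the cattle-yak, and clusters 39 and 25 held 159 and 40 of 211 in the yak. These clusters were named from raised markers such as UCHL1, ZBTB16 and DMRT1, so likeness in such genes was partly set by the naming. Median depth was 857 against 1428 UMIs per cell, and the sums 192956 against 854818 UMIs. Of 4269 genes 4.57% were past 2-fold higher and 14.5% lower in the hybrid, against 25.5% either way between the libraries of 18 months. None of the 7 measured stem and progenitor genes was past 2-fold (median log2 0.44). UCHL1 stood at 2897 against 3094 CPM (ratio 0.936, 0.853 to 1.03) and ID4, a regulator of stem cell renewal, at 72.6 against 45.6 CPM (ratio 1.59, 0.798 to 2.99). Under the mean of the cells' own CPM, which weights cells equally, ID4 was past 2-fold higher, at log2 2.22. DMRT1, which keeps spermatogonia from entering meiosis, stood at 384 against 198 CPM (ratio 1.94, 1.46 to 2.56).

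Among genes of differentiating spermatogonia, DMRTB1, a regulator of the step from mitosis to meiosis, was 2.09-fold higher (1.24 to 3.42) in the hybrid. DNMT3A, a DNA methyltransferase, was 2.48-fold lower (1.15 to 6.38), and YTHDC2, an RNA helicase needed for meiotic entry, had 3 against 38 counts, 2.86-fold lower (0.907 to 14.5). In the recombination list HSF2BP was 3.07-fold lower (1.71 to 6.06). PIWIL4, the PIWI protein of fetal and spermatogonial germ cells, was 3.24-fold lower (1.43 to 9.06), while MAEL stood at 394 against 377 CPM. CENPF, a kinetochore protein of dividing cells, was 2.14-fold higher (1.73 to 2.63), and its levels in the younger yaks ran from 62.4 to 517 CPM. DMRTB1 and CENPF fell below 2-fold under the mean of the cells' own CPM, at log2 0.32 and 0.73, and with at most 10% mitochondrial UMIs, at 0.79 and 0.74. Of the yak's counts, 72 of 86 for PIWIL4 and 56 of 77 for DNMT3A came from the 40 cells of cluster 25, where the hybrid had 2 cells. Lymphocyte markers made up 0.0259% of UMIs in the hybrid's spermatogonia and 0.00515% in the yak's, and markers of round and elongating spermatids 0.00518% and 0.0453%.

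Outside the lists, SLPI, a secreted protease inhibitor, was first in the ranking by the near bound of the interval, at 886 against 159 CPM, 5.57-fold higher (4.42 to 7.03), above the 187 to 473 CPM of the younger yaks. RADX, a single-strand DNA binding protein at replication forks, was at 389 against 104 CPM, 3.73-fold higher (2.71 to 5.13). PTMA, a small acidic nuclear protein, was 2.24-fold higher (2.03 to 2.47) but at log2 0.87 under the mean of the cells' own CPM, LAMTOR3, a lysosomal signalling scaffold, 6.65-fold higher (3.22 to 14.1), and PRDX2, a peroxidase, 3.26-fold higher (2.099 to 5.02). Lowest in that ranking were CAMTA2, a transcription activator, at 5.18 against 144 CPM with 1 count in the hybrid, 27.8-fold lower (4.89 to 1105), and NRIP3 at 104 against 763 CPM, 7.36-fold lower (4.73 to 12.1). GNAS, the stimulatory G protein alpha subunit, was at 171 against 937 CPM, 5.48-fold lower (3.87 to 8.02). For all 3, the 4 younger libraries lay above the hybrid, with CAMTA2 at 127 to 404 CPM, NRIP3 at 446 to 849 CPM and GNAS at 865 to 2496 CPM. LFNG, a glycosyltransferase that modifies Notch receptors, was 7.07-fold lower (3.19 to 19.5), and MBOAT2, a lipid acyltransferase, 8.41-fold lower (3.22 to 31.3). MT3, a metallothionein, and UPK3A, a uroplakin, had no count in the hybrid against 64 and 61 in the yak, at least 4.82-fold lower and at least 4.59-fold lower. Most of the yak's counts lay in cluster 25 for CAMTA2 (107 of 123), MT3 (53 of 64) and UPK3A (55 of 61). That cluster also held 144 counts of LFNG and 102 of MBOAT2, against 31 and 33 in cluster 39. Between the largest clusters alone, 18 in the hybrid and 39 in the yak, SLPI stood at 1018 against 241 CPM, NRIP3 at 84.2 against 441 CPM and GNAS at 168 against 386 CPM, and CAMTA2 had 0 against 11 counts.

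Early spermatocytes of the hybrid carried the genes of chromosome pairing and recombination mostly within 2-fold of the yak's levels, as they did 4712 of all 5637 genes compared. Cluster 19 was named from raised markers that include SYCP1, SYCP2, SYCP3, DMC1, SPO11 and MEIOB. Likeness in such genes was thus partly set by how the cells were picked. The comparison used cluster 19, which held 40 cells of the cattle-yak, fewer than the 50 set for a class, and 193 of the yak, and was added after the data were seen. Depth was alike, with medians of 6505 and 6649 UMIs. Of 5637 genes 6.12% were past 2-fold higher and 10.3% lower, and the 18-month libraries, with 3 and 14 spermatocytes, gave no comparison between libraries. TMM scaling, a trimmed-mean rescaling, changed the split from 345 higher and 580 lower to 242 and 711. Of 16 synaptonemal complex and cohesin genes 0 were past 2-fold higher and 1 lower (median log2 0.46). Of 17 recombination genes 1 was higher and 0 lower (median 0.32), and of 14 piRNA genes 1 was higher and 0 lower (median -0.09).

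SYCP3 stood at 1395 against 789 CPM in these cells (1.77-fold higher, 1.58 to 1.97) and SYCP1, the transverse filament protein, at 578 against 487 CPM (1.19-fold higher, 1.00 to 1.40). DMC1 was at 124 against 101 CPM and MEIOB, which binds single-stranded DNA at breaks, at 377 against 235 CPM, with ratios of 1.23 (0.843 to 1.77) and 1.60 (1.29 to 1.98). REC114, a partner of the break machinery, was at 159.6 against 248 CPM (1.56-fold lower, 1.15 to 2.13). REC8, the meiotic cohesin, was the member past 2-fold lower, at 38.3 against 93.3 CPM (2.44-fold lower, 1.35 to 4.83). TDRD7, a Tudor domain protein of germ granules, was 2.45-fold higher (1.46 to 4.02), and ATR, the checkpoint kinase of unpaired chromosomes, 2.07-fold higher (1.41 to 2.99). CCNE2, an S phase cyclin, was 2.16-fold higher (1.64 to 2.83). ATR and CCNE2 stood below 2-fold under TMM scaling, and REC8 under the mean of the cells' own CPM and with at most 10% mitochondrial UMIs.

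Genes outside these lists were named from both ends of the ranking by the near bound of the interval. Of all 5637 genes compared in these cells, 4712 lay within 2-fold. TMEM37, a calcium channel subunit-like protein, had 74 against 4 counts and stood at 236 against 2.76 CPM, 85.4-fold higher (32.0 to 322). GTF2F1, a subunit of the general transcription factor TFIIF, was at 453 against 44.2 CPM, 10.2-fold higher (7.57 to 13.99). CHGA, chromogranin A, was 6.93-fold higher (4.94 to 9.77), C1D, a cofactor of the RNA exosome, 3.78-fold higher (2.98 to 4.79) but at log2 0.84 under the mean of the cells' own CPM, MXI1, a MAX partner, 4.33-fold higher (2.83 to 6.62) and PRPF38A, a splicing factor, 3.74-fold higher (2.79 to 4.99). Lower in the hybrid were AMN at 12.8 against 89.2 CPM, 6.99-fold lower (2.66 to 26.0), RSPH14, a radial spoke protein, with 1 against 59 counts, and CREB1, a cAMP-responsive transcription factor, with 0 against 39 counts, at least 2.82-fold lower. HRAS, a small GTPase, was 4.30-fold lower (2.03 to 10.9). MBOAT2, lower over the hybrid's spermatogonial class as summed, was also lower here, 5.69-fold lower (2.16 to 21.3).

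Sertoli cells gave the thinnest comparison. The hybrid held them in cluster 27 (340 of 344 cells) and the yak in cluster 40 (69 of 71), with sums of 438776 and 63546 UMIs. Of 1640 genes 16.3% were past 2-fold higher and 13.7% lower, against 30.9% either way at 18 months. TMM scaling shifted all log2 ratios in this class by 0.65 and changed the split from 267 higher and 225 lower to 555 and 83. None of the 4 measured genes of the Sertoli state was past 2-fold (median log2 -0.37): INHA, the inhibin alpha subunit, stood at 789 against 1102 CPM, SOX9, the fate regulator of these cells, at 105 against 126 CPM and CITED1 at 463 against 645 CPM. All 3 stood higher in the hybrid under TMM scaling. SOX9 was past 2-fold lower under the mean of the cells' own CPM, at log2 -1.21. IGFBP7, a secreted IGF-binding protein, was 2.62-fold higher (2.11 to 3.302) at 3508 against 1338 CPM, and the younger yaks ranged from 3686 to 5465 CPM, so the mature yak was the lowest library. IFI27L2, an interferon-inducible gene, had 155 against 2 counts (11.2-fold higher, 3.06 to 93.5) and OXT, oxytocin, 92 against 1 counts (13.3-fold higher, 2.33 to 532), so both rest on few counts in the yak. PPP1CC, the phosphatase catalytic subunit used in testis, was 11.8-fold lower (6.26 to 22.8). PPP1CC stood at 1765 CPM in the yak's germ cluster 35, and markers of round and elongating spermatids made up 0.131% of UMIs in the yak's Sertoli cells and 0.00251% in the hybrid's, whose part in this value was not tested. Of 13 measured dissociation and stress genes 10 were past 2-fold higher, and 10 of the 13 were marked as possible free RNA. Mural markers made up 0.144% of UMIs in the hybrid's Sertoli cells, with 11 of 11 counted, and 0.0173% in the yak's, with 3 of 11, and their part in these values was not tested.

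Stroma of the hybrid was higher in APOD, C7, IGF1 and DCN and lower in smooth muscle genes. The hybrid's stroma lay in cluster 12 (636 of 669 cells) and the yak's in cluster 41 (198 of 203), at medians of 1186 and 1273 UMIs. Of 3715 genes 8.02% were past 2-fold higher and 11.8% lower, against 31.9% at 18 months. APOD, a lipid-binding apolipoprotein, stood at 3350.1 against 749.6 CPM, 4.47-fold higher (3.88 to 5.17), and the younger yaks at 55.1 to 486 CPM. C7, a complement component made by fibroblasts, was 4.66-fold higher (2.89 to 7.99), and IGF1, the growth factor, at 361 against 106 CPM, 3.40-fold higher (2.32 to 5.17), with 52.7 to 93.4 CPM in the younger yaks. These 3 genes were highest in the hybrid among the 6 libraries. DCN, the matrix proteoglycan decorin, was 3.15-fold higher (2.61 to 3.82) but lay within the range of the younger yaks, 913 to 1459.6 CPM. Of 26 matrix genes 4 were past 2-fold higher and 1 lower (median log2 0.41), TIMP1, an inhibitor of metalloproteases, being 2.50-fold higher (2.15 to 2.91) and FN1, fibronectin, 2.31-fold lower (1.42 to 3.73). FN1 fell below 2-fold under TMM scaling (log2 -0.90) and with at most 10% mitochondrial UMIs (-0.76), and TIMP1 under the mean of the cells' own CPM (0.91).

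Of 14 smooth muscle genes 8 were past 2-fold lower in hybrid stroma and 0 higher (median log2 -1.19). MYH11, the smooth muscle myosin, stood at 191 against 918 CPM, 4.81-fold lower (3.94 to 5.89), and ACTA2, smooth muscle actin, at 429 against 1129.8 CPM, 2.64-fold lower (2.26 to 3.07). The younger yaks held MYH11 at 0.984 to 70.7 CPM, so both mature libraries were above them. CYP26B1, which degrades retinoic acid, was 2.32-fold higher (1.67 to 3.29). CYP11A1, the first enzyme of steroid synthesis and a Leydig marker, was 2.51-fold lower (1.77 to 3.53), at 91.9 against 230.4 CPM. STMN2, a microtubule regulator, was 10.9-fold higher (5.22 to 27.4) with the younger yaks above both at 507 to 1191 CPM. Mural markers as a whole made up 0.305% of UMIs in the hybrid's stroma, with 11 of 11 counted, and 0.729% in the yak's, with 9 of 11 and RGS5 and NOTCH3, the pericyte markers, at 0; their part in the smooth muscle values was not tested. With the limit of 10% mitochondrial UMIs the list's median was -0.41 and ACTA2 stood at a log2 ratio of -0.32. TMM scaling shifted stromal ratios by 0.31 and changed the split from 298 higher and 440 lower to 513 and 286.

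Mural cells could be compared only in part. The yak's mural cells were in cluster 26 (131 of 134), which also carried endothelial genes, while the hybrid's were in clusters 23, 17 and 26 (244, 108 and 31). Of 4331 genes 6.79% were past 2-fold higher and 10.4% lower, against 32.2% at 18 months. None of 16 smooth muscle genes was past 2-fold (median log2 0.24), with ACTA2 at 3750 against 2112 CPM and TAGLN, an actin-binding protein, at 12107 against 11113 CPM. With at most 10% mitochondrial UMIs the list's median was 1.63 and ACTA2 and TAGLN were past 2-fold higher, at log2 2.21 and 1.61, and under TMM scaling ACTA2 was at 1.06. Endothelial genes were lower in the class, 7 of 11 past 2-fold, PECAM1 at 35.9 against 187 CPM. Endothelial markers made up 0.0463% of UMIs in the hybrid's mural cells and 0.112% in the yak's. Within cluster 26 alone, with 31 hybrid cells, the picture turned: the median of the endothelial list was 0.53, that of the smooth muscle list -1.89, and ACTA2 and TAGLN were at log2 ratios of -2.70 and -2.43. Without cluster 26 the yak kept 3 mural cells, too few to compare. TMM scaling changed the split from 294 higher and 451 lower to 449 and 300.

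Endothelial cells of the hybrid were lower in basement membrane collagen, NPY and DNASE1L3 and higher in CXCL12 and SFRP1. The hybrid's cells lay in clusters 15 and 11 (492 and 66 of 566) and the yak's in 34 and 37 (1233 and 284 of 1523). Clusters 11 and 37 carried PROX1 and MMRN1, genes of lymphatic vessels, and held 11.7% and 18.6% of the class. Of 7731 genes 3.34% were past 2-fold higher and 18.8% lower, against 23.4% at 18 months. These were 258 higher and 1453 lower genes; without those marked as possible free RNA 179 were higher and 502 lower, and with TMM scaling 401 and 1145. The identity genes PECAM1 (319.5 against 254 CPM) and CDH5 (165 against 159.8 CPM) were within 2-fold, while 7 of 20 genes of the list were past 2-fold lower and 0 higher (median log2 -0.40). KDR, the main VEGF receptor, was at 156 against 337 CPM, 2.16-fold lower (1.90 to 2.48), and its younger yak values ran from 105 to 208 CPM, on both sides of the hybrid. Under TMM scaling KDR was below 2-fold, at log2 -0.89.

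COL4A1 and COL4A2, the chains of basement membrane collagen, were 2.46-fold lower (2.19 to 2.77) and 2.59-fold lower (2.13 to 3.16) in the hybrid, below all 5 yak libraries. ANGPT2, a ligand of the TIE2 receptor, was 4.65-fold lower (2.99 to 7.56), and the younger yaks, at 9.05 to 18.1 CPM, lay around the hybrid. Of the yak's ANGPT2 counts, 116 lay in cluster 37, with the lymphatic genes, and 36 in cluster 34. NPY, neuropeptide Y, had 5 against 198 counts and stood at 2.64 against 73.7 CPM, 27.9-fold lower (11.7 to 86.8), with 23.6 to 174 CPM in the younger yaks. DNASE1L3, a secreted nuclease, was at 51.8 against 397 CPM, 7.66-fold lower (6.22 to 9.52), with 189 to 454 CPM, and FMO1, a monooxygenase, was 5.34-fold lower (4.02 to 7.21). For these 3 genes, too, the hybrid was the lowest of the 6 libraries. Higher in the hybrid were SFRP1, a secreted Wnt antagonist, at 57.7 against 1.86 CPM, 31.0-fold higher (12.9 to 97.3), and APOA1, an apolipoprotein, 5.96-fold higher (5.49 to 6.47), the latter within the range of the younger yaks (722 to 1864 CPM). SYT4, a synaptotagmin, had 39 against 0 counts and 0 CPM in all 5 yak libraries, at least 18.5-fold higher than in the mature yak, and was also counted in the hybrid's stroma at 25.2 CPM and in a mural cluster at 24.8. CXCL12, the chemokine that holds stem cells in niches, was at 987 against 442 CPM, 2.23-fold higher (2.08 to 2.40), above the 274 to 341 CPM of the younger yaks, and IFI6, an interferon-induced gene, was 2.35-fold higher (2.18 to 2.53). Under the mean of the cells' own CPM CXCL12 and IFI6 stood below 2-fold, at log2 0.74 and 0.997.

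Lymphocytes of the hybrid were of more than 1 kind. Cluster 30 held 951 of 1318 cells (72.2%, 69.6 to 74.6) of its lymphocytes. Its leading genes included CCL5, NKG7, CST7, GZMK and TRDC, a gamma-delta T cell receptor gene. The same genes were among the leading ones of cluster 33, which held 812 of 814 in the yak, with 1531 counts of TRDC and 626 of GZMK. Cluster 21, with IL7R and GPR183, held 343 of 1318 cells (26.0%, 23.7 to 28.5) in the hybrid and 0 of 814 cells, where a count of 0 allows up to 0.369% in the yak. IL7R, the interleukin 7 receptor, was also counted in the yak's cluster 33, at 554 CPM, between the 113 CPM of cluster 30 and the 1197 CPM of cluster 21, so the 0 is a count of cells in that cluster and not of cells with IL7R. Of 5967 genes 6.32% were past 2-fold higher and 14.6% lower, against 30.9% at 18 months. These were 377 higher and 872 lower genes, and 270 and 170 without those marked as possible free RNA. None of 12 cytotoxic genes was past 2-fold (median log2 -0.07): CCL5, a chemokine of activated T and killer cells, stood at 7457 against 7235 CPM and NKG7, a protein of cytotoxic granules, at 1294 against 1535 CPM. Of 14 T cell genes 1 was past 2-fold lower and 0 higher (median log2 0.10). In whole libraries 11 of 12 cytotoxic genes were higher (median log2 1.46), where the hybrid also held the larger share of lymphocytes.

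GPR183, a receptor that guides lymphocytes to sterol ligands, was at 242 against 43.9 CPM, 5.51-fold higher (4.16 to 7.41), over the class. The value rested on cluster 21, where it stood at 756 CPM, against 8.50 in cluster 30 and 44.1 in the yak's cluster 33; between the largest clusters alone the log2 ratio was -2.37, the opposite direction. CCL20, a chemokine, had 34 against 1 counts and CRABP1, a retinoic acid binding protein, 212 against 8 counts, with 284 CPM in cluster 21 and 19.1 in cluster 30. CD300H, an immune receptor, was at 80.3 against 7.18 CPM, 11.2-fold higher (5.75 to 24.9), with 116 CPM in cluster 30 and 1.42 to 6.33 CPM in the younger yaks. S100A4, a calcium-binding protein of effector and memory cells, was at 3235 against 1188 CPM, 2.72-fold higher (2.57 to 2.88), and S100A13 3.38-fold higher (2.94 to 3.89), both above all 5 yak libraries. CSF1, the growth factor of macrophages, was 3.59-fold higher (2.07 to 6.68), at 43.0 against 12.0 CPM, within the younger yaks' 15.6 to 64.5 CPM.

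Macrophages of the hybrid had low complement C1q. Both libraries held them in cluster 7, 86 and 52 cells with medians of 2456 and 1132 UMIs. Of 1202 genes 13.6% were past 2-fold higher and 10.1% lower, against 28.4% at 18 months. TMM scaling shifted ratios by 0.47 and changed the split from 164 higher and 121 lower to 320 and 56. C1QA (ENSBGRG00000003422) stood at 622 against 5317 CPM, 8.55-fold lower (7.13 to 10.3), C1QB (ENSBGRG00000003451) at 660.2 against 2911 CPM, 4.41-fold lower (3.61 to 5.39), and C1QC (ENSBGRG00000003430) at 391 against 3284 CPM, 8.39-fold lower (6.66 to 10.6). These are the 3 chains of the complement starter C1q, which tissue macrophages make. The younger yaks ranged over 1174 to 4545 CPM, 838 to 4022 CPM and 743 to 4203 CPM, all above the hybrid, and the 18-month libraries themselves stood at 1174 and 4545 CPM for C1QA. CSF1R, the macrophage growth factor receptor, was at 399 against 722 CPM (ratio 0.553, 0.399 to 0.773). With at most 10% mitochondrial UMIs CSF1R was past 2-fold lower, at log2 -1.05. APOE, the lipid carrier, was at 4168 against 1035 CPM, 4.03-fold higher (3.23 to 5.08), above the 272 to 1568 CPM of the younger yaks, and LGALS1, galectin 1, 4.76-fold higher (3.09 to 7.70). CXCL10, an interferon-induced chemokine, was 4.36-fold higher (2.22 to 9.76) and lay within the younger yaks (187 to 592 CPM), and under the mean of the cells' own CPM it stood at log2 0.84. DDIT3, a stress-induced transcription factor, was 3.47-fold higher (2.14 to 5.98).

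**Figure D4:**
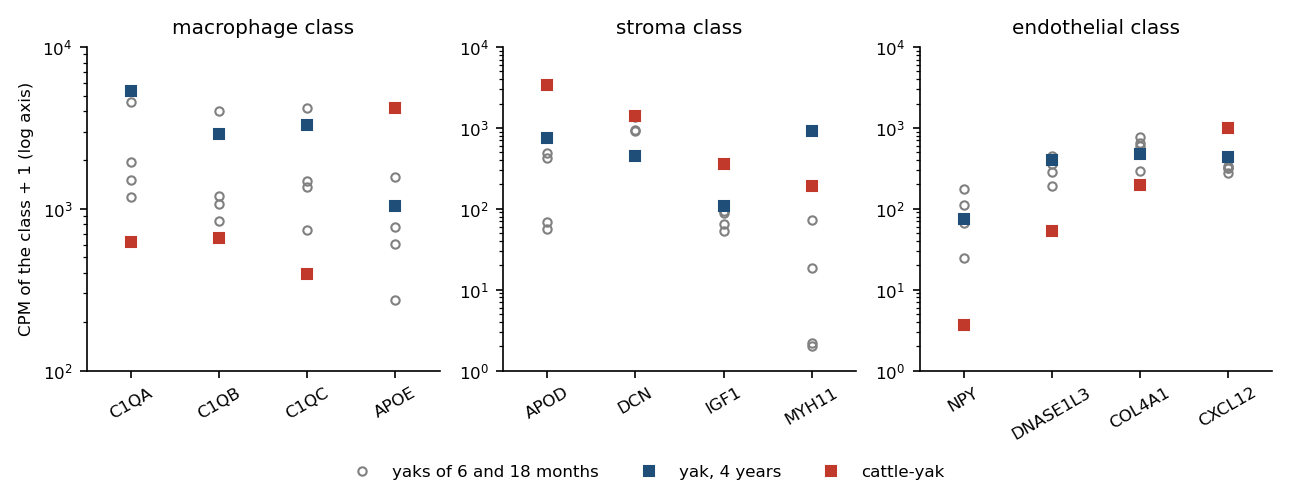
Level of 4 genes (x axis) in the macrophage, stroma and endothelial classes (y axis, CPM of the class + 1 on a log axis) for the cattle-yak (red), the yak of 4 years (blue) and the 4 libraries of younger yaks (open circles). The hybrid is below all yak libraries for C1QA, C1QB, C1QC, NPY, DNASE1L3 and COL4A1 and above them for APOE in macrophages, for APOD and IGF1 in stroma and for CXCL12 in endothelial cells.

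A cluster without a class name set the hybrid apart in whole libraries. Cluster 32 held 139 cells of the cattle-yak and 6 of the yak of 4 years, and its leading genes were WFDC2, a secreted protein of duct epithelium, TF, transferrin, PAX8, a regulator of epithelial tracts, and LTF, lactoferrin. It also raised 3 Sertoli markers (SOX9, INHA and WT1), but its leading genes held more markers of another class, so it stayed unnamed. EPCAM, the usual epithelial marker, was at 3.11 CPM in it. WFDC2 (ENSBGRG00000016785) stood at 11823 CPM in this cluster and at 597 against 6.004 CPM over the whole libraries, 99.4-fold higher (80.0 to 125), and at 2.03 to 16.8 CPM in the younger yaks. No gene had a higher near bound of its interval. TF was at 485 CPM and PAX8 at 227 CPM in the cluster. Which part of the tissue block it came from was not tested.

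Over whole libraries, genes of the classes with larger shares in the hybrid were higher. All 16 measured smooth muscle genes were past 2-fold higher (median log2 1.77), ACTA2 at 726 against 98.7 CPM, although none was past it within mural cells and 8 were lower within stroma. With at most 10% mitochondrial UMIs the medians of that list were 1.63 within mural cells and -0.41 within stroma. Of 28 matrix genes 17 were higher and 0 lower (median 1.18), COL1A2 at 149.9 against 22.1 CPM, and the stromal genes APOD (25.3-fold higher, 22.1 to 29.1), OGN (13.3-fold higher, 12.0 to 14.6) and C7 (18.1-fold higher, 13.2 to 25.2) were among the highest 10. Of 23 interferon response genes 11 were higher (median 0.97), against 15.6% of all genes, IFI6 5.11-fold higher (4.86 to 5.36). Within lymphocytes 0 of 16 were higher (6.32% of all genes) and within endothelial cells 2 of 21 (3.34%), where 1 was lower. Within macrophages 2 of 8 were higher (13.6%), within stroma 2 of 11 (8.02%) and within Sertoli cells 1 of 2 (16.3%). Mural cells had 2 of 13 higher (6.79%) and 1 lower. Signals of the spermatogonial niche had 7 of 13 higher and 2 lower (median 1.60), IGF1 at 46.3 against 4.56 CPM and ALDH1A2, a retinoic acid synthase, at 15.0 against 67.6 CPM (4.50-fold lower, 3.71 to 5.51). Of the yak's ALDH1A2 counts, 464 lay in germ cluster 35, 144 in 38 and 131 in 36, against 17 in stromal cluster 41. Under the mean of the cells' own CPM the medians over whole libraries were 1.07 for smooth muscle, 0.30 for interferon response and 0.62 for niche genes. Of 24 cell cycle genes 13 were lower and 1 higher (median -1.13), while within early spermatocytes 0 of 22 were lower and 1 was higher.

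Genes that respond to dissociation and stress were higher in the hybrid in several classes. Over whole libraries 15 of 22 were past 2-fold higher and 0 lower (median log2 1.71), and under the mean of the cells' own CPM the median was 0.91. Within classes 8 of 20 were higher in stroma (8.02% of all genes), 5 of 22 in endothelial cells (3.34%) and 6 of 18 in macrophages (13.6%). In lymphocytes 1 of 20 was higher (6.32%) and in mural cells 0 of 21 (6.79%), where 1 was lower. Spermatogonia had 2 of 9 higher (4.57%) and early spermatocytes 2 of 10 (6.12%). Marked as possible free RNA were 6 of the 20 in stroma, 8 of the 20 in lymphocytes, 4 of the 9 in spermatogonia and 5 of the 10 in early spermatocytes. JUN, an immediate early transcription factor, stood at 4606 against 1452 CPM in stroma, below the 5721 to 12849 CPM of the younger yaks, so the mature yak was the low library. FOS in endothelial cells was at 3181 against 1446 CPM, and the younger yaks at 2719.6 to 5437 CPM, with the log2 ratio at 0.81 under the limit of 10% mitochondrial UMIs. The mitochondrial share of UMIs was 8.98% and 5.76% over whole libraries, and 7.66% and 10.7% in endothelial cells, 11.6% and 12.1% in stroma and 7.63% and 6.95% in spermatogonia. Handling of the tissue was not measured, and its part in these genes was not tested.

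Spermatid RNA outside germ cells differed between the libraries. Markers of round and elongating spermatids made up between 0.044% and 0.131% of UMIs in the somatic classes of the yak and at most 0.00251% in those of the hybrid. Lymphocyte markers made up 0.123% of UMIs in the hybrid's Sertoli cells and 0.0787% in the yak's. The genes for late sperm chromatin and tail that were measured within endothelial cells (11) and lymphocytes (9) were all past 2-fold lower in the hybrid and all marked as possible free RNA, and no level in somatic cells is read from them.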

How the data were processed

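Single-cell RNA libraries of testis from 1 cattle-yak and 1 yak of 4 years were used, with 4 younger yak libraries for clustering and for ranges. The deposited values are raw UMI counts per gene and barcode, with a lowest barcode total of 500 UMIs. They were made with Cell Ranger 5.0.0, per the file headers, or 2.1.1, per the submitters' processing notes. Not given in the sources used here are the genome build and the annotation. Hybrid reads were counted against 1 annotation. The files list 26961 features, of which 15722 carry a symbol.

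Barcodes were kept from 300 genes upward and up to a share of 20% of UMIs on the 37 mitochondrial features. Scrublet scores ranked likely doublets, and 0.8% per 1000 barcodes were removed by rank, since its own threshold called 0 in both libraries. The 29240 kept cells of 6 libraries were clustered with scanpy 1.11.5 (2000 variable genes, 30 components, 15 neighbours, Leiden resolution 2), and 40 of 42 clusters were named from markers. Some genes compared within a class are such markers, as INHA, SOX9 and CITED1 in Sertoli cells, CCL5 and NKG7 in lymphocytes and ACTA2 and TAGLN in mural cells. Their likeness within the class was partly set by the naming. Counts were summed per library and class and scaled to a common total (CPM), and genes with at least 30 counts over both libraries were compared. With 1 library a side there is no test: ratios and shares carry exact 95% intervals (scipy 1.17.1), a count of 0 is set to a floor of 3 counts per library, and past 2-fold is a size, not a call. The ratio code was tested on simulated data.

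The members and lists were chosen with earlier results of these data known. Genes were named as the 10 highest and 10 lowest in whole libraries and the 8 highest and 8 lowest in a class, by the bound of the interval nearest to 1, without mitochondrial, ribosomal and possible free RNA genes in classes, and as up to 4 members a direction of each list; not all of these are printed, and some genes of the lists are not reported here. List members within 2-fold are named as references and were picked after their values were seen, as were the levels in single clusters.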

Additional observations from a re-analysis of the deposited data

How the results depend on the processing

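Directions of class shares held under the alternatives, while the split of genes past 2-fold into higher and lower turned in several classes. Under TMM scaling stroma turned from 298 higher and 440 lower to 513 and 286, and mural cells from 294 and 451 to 449 and 300. Lymphocytes turned from 377 and 872 to 270 and 170 without genes marked as possible free RNA. The ratio of class shares, cattle-yak over yak of 4 years, kept its direction for all 7 classes under the 7 alternatives of filtering and clustering. With at most 10% mitochondrial UMIs it was 0.0689 for germ cells (0.0907 as reported), 3.75 for lymphocytes (2.03), 0.787 for endothelial cells (0.466), 5.59 for stroma (4.13), 4.47 for Sertoli cells (6.07) and 17.0 for mural cells (3.58). With at most 40% it was 1.81 for lymphocytes and 2.32 for mural cells. With at least 500 genes it was 0.621 for endothelial cells, 3.59 for macrophages (2.07) and 131 for stroma, where the yak's main stromal cluster got no name. With the 2 libraries clustered alone it was 5.96 for stroma, 2.64 for Sertoli cells and 4.56 for mural cells. The spermatid groups of the yak made up 43.2% of its germ cells with doublets kept, 69.4% and 32.4% with at most 10% and 40% mitochondrial UMIs, 41.9% and 42.9% at resolutions 1 and 4, and 41.4% with the 2 libraries alone. Barcodes with 3 spermatid markers were 0% in the cattle-yak and 13.5% in the yak, and at 1000 UMIs the yak had 33.9%. Counts of genes past 2-fold depended most on the minimum count. With at least 10 counts they were 766 higher and 758 lower in Sertoli cells, 506 higher and 2615 lower in endothelial cells, 812 higher and 1731 lower in lymphocytes, 520 higher and 603 lower in macrophages, 787 higher and 1103 lower in mural cells, 611 higher and 1560 lower in spermatogonia, 779 higher and 1252 lower in stroma and 776 higher and 1425 lower in early spermatocytes, and with at least 100 counts 73 higher and 31 lower in Sertoli cells, 118 higher and 536 lower in endothelial cells, 138 higher and 277 lower in lymphocytes, 62 higher and 13 lower in macrophages, 87 higher and 105 lower in mural cells, 53 higher and 163 lower in spermatogonia, 81 higher and 83 lower in stroma and 104 higher and 165 lower in early spermatocytes. TMM scaling, computed in Python, shifted log2 ratios by 0.12 in whole libraries and lymphocytes, 0.65 in Sertoli cells, 0.47 in macrophages, 0.31 in stroma, 0.23 in mural cells, 0.22 in endothelial cells and -0.14 in early spermatocytes, and gave 555 higher and 83 lower in Sertoli cells, 401 higher in endothelial cells, 320 higher and 56 lower in macrophages, 449 higher and 300 lower in mural cells and 513 higher and 286 lower in stroma. The mean of the cells' own CPM gave 1224 higher in whole libraries, 386 higher and 1055 lower in spermatogonia and 943 lower in early spermatocytes, and shifted ratios by -0.14 in spermatogonia and -0.12 in early spermatocytes. With at most 10% mitochondrial UMIs the counts were 165 higher and 109 lower in Sertoli cells, 223 and 807 in endothelial cells and 372 and 416 in lymphocytes. They were 106 higher and 63 lower in macrophages, 314 and 246 in mural cells and 131 and 146 in stroma. In the mural cluster with at least 20 cells of each library 206 higher and 228 lower genes were found. Genes marked as possible free RNA were also left out, an alternative chosen after seeing the data. The counts were then 179 higher and 502 lower in endothelial cells, 270 and 170 in lymphocytes and 138 and 79 in macrophages. They were 236 higher and 242 lower in mural cells, 261 and 209 in stroma and 180 and 182 in Sertoli cells. Log2 ratios that turned direction were, under TMM scaling, CITED1 (0.18), INHA (0.17) and SOX9 (0.39) in Sertoli cells and MAEL (-0.018) in spermatogonia. Under the mean of the cells' own CPM they were MAEL (-0.26), PECAM1 in endothelial cells (-0.0017) and TAGLN in mural cells (-0.16), and under CPM of nuclear UMIs CDH5 in endothelial cells (-0.0016), all of them within 2-fold as reported. In the shared mural cluster they were ACTA2 (-2.70), TAGLN (-2.43) and the median of the endothelial list (0.53). In the largest lymphocyte clusters, also chosen after seeing the data, they were GPR183 (-2.37) and NKG7 (0.18). With at least 100 counts the median of the acrosome and round spermatid list in early spermatocytes turned to 0.36, over fewer genes. The cause was not tested. No paired analysis was possible because each side is 1 library, and for the same reason no library could be left out. The comparison of mural cells without the cluster that carries endothelial genes, chosen after seeing the data, was not run, since 3 yak cells remained, and only mural cells had some clusters with at least 20 cells of each library and some without. Depth limits the Sertoli and macrophage comparisons most, with 1640 and 1202 genes at 30 counts or more.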

Other observations

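Several genes stood past 2-fold in opposite directions in different classes, each given as a value with no explanation. DNASE1L3 was higher in the hybrid's macrophages (log2 1.48) and lower in its endothelial cells (log2 -2.94). GNAS was higher in macrophages (log2 1.73) and lower in spermatogonia (log2 -2.45), COL4A2 higher in stroma (log2 1.09) and lower in endothelial cells (log2 -1.37), and DAB2, an endocytic adaptor, higher in stroma (log2 2.14) and lower in macrophages (log2 -2.04). TMEM37 was higher in stroma and early spermatocytes and lower in endothelial cells (log2 -2.29). The difference between classes was not tested, because each class has 1 library a side.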
